A study of Mus musculus with 16 samples.

Results

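A set of 10 genes that mark the epicardium and other mesothelial linings were followed by RNA-seq in neonatal mouse ventricles, with and without the cardiomyocyte protein LRRC10 and with and without myocardial infarction (MI). The 10 genes were given by a list of names. They are *Wt1* (ENSMUSG00000016458), *Tbx18* (ENSMUSG00000032419), *Tcf21* (ENSMUSG00000045680), *Aldh1a2* (ENSMUSG00000013584), *Upk3b* (ENSMUSG00000042985), *Upk1b* (ENSMUSG00000049436), *Msln* (ENSMUSG00000063011), *Lrrn4* (ENSMUSG00000043110), *Krt8* (ENSMUSG00000049382) and *Krt19* (ENSMUSG00000020911). All 10 were found among the 51912 genes of the deposited count table, and all 10 were among the 20159 genes that were tested, those whose counts totalled 10 or more in every group. The series holds 16 libraries of whole ventricle, 4 in each of 4 groups. WT SH and WT MI were wild-type C57BL/6J mice, and KO SH and KO MI were *Lrrc10*-/- mice, a deletion in the whole body on a C57BL/6 background. Surgery was on postnatal day 1 and tissue was taken 7 days later, so all mice were in their second week of life. The sham surgery (SH) left the heart unexposed and without ligation. In the MI surgery the heart was brought out and the left anterior descending artery was tied, so exposing the heart and infarcting it cannot be told apart in these groups. The wild-type mice came from a commercial supplier, and the *Lrrc10*-/- mice from a line made earlier, so genotype and colony cannot be told apart either. The libraries of a group are numbered, 1 to 4 or, in KO MI, 1, 2, 3 and 7. The labels do not say in words that each is 1 mouse, so p-values measure the spread between these libraries.

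The epicardium is the sheet of mesothelial cells that covers the heart. In the embryo, some of its cells undergo an epithelial-mesenchymal transition, enter the muscle and become fibroblasts and the mural cells of coronary vessels, and after injury the sheet re-expresses parts of this program. The transcription factors WT1, TBX18 and TCF21 and the retinoic acid-producing enzyme ALDH1A2 mark the embryonic epicardium, while uroplakins, mesothelin and the keratins of simple epithelia belong to its surface and to the mesothelium of other body cavities. Several of these genes are not private to the epicardium. *Tcf21* is also made by cardiac fibroblasts, *Tbx18* by mural cells, *Wt1* by some endothelial cells, and the keratins by other epithelia. In bulk tissue, more cells of a type and more RNA per cell cannot be told apart.

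The libraries were checked against their labels before the genes were compared. Total counts per library ranged from 33783874 to 57470159. A floor of 3 counts, under which a gene is not told from absence, corresponded to between 0.0577 and 0.0858 CPM, counts relative to the TMM-scaled library total, the scale used for all levels here. *Lrrc10* had 0 counts in every KO SH and KO MI library, and between 26.2 and 35.6 CPM in the WT libraries. The groups were described as balanced for sex. *Xist*, which the inactive X chromosome makes, was at most 9.76 CPM in all 4 WT SH libraries, and their summed Y-linked transcripts were 159.7 to 165.2 CPM. In each of the other groups, 2 libraries had *Xist* of at least 919 CPM with at most 1.33 CPM of Y-linked transcripts (KO SH 1 and 2, WT MI 2 and 4, KO MI 1 and 2), and 2 were like WT SH. Each comparison is therefore also given for the 10 libraries with low *Xist* (at most 23.4 CPM, with Y-linked transcripts of at least 137 CPM). The tissue itself was heart, with a sum of 7 cardiomyocyte genes between 24193 and 37757 CPM.

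**Figure D1:**
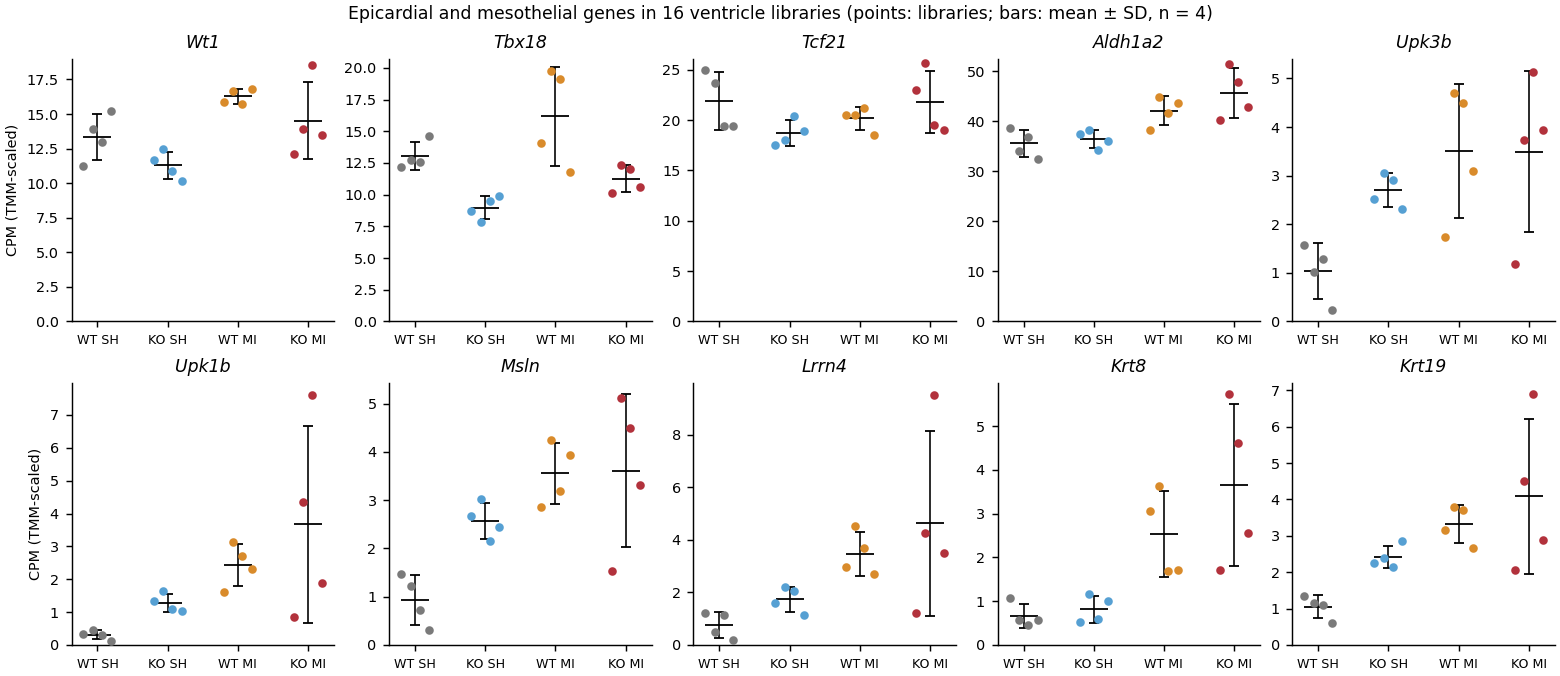
CPM (linear axis from 0) of each of the 10 genes in the 4 groups, with a point for each library and bars for the mean and SD (n = 4). Wt1, Tbx18, Tcf21 and Aldh1a2 lie at 7.83 CPM or more in every library, whereas the 6 surface and keratin genes are at most 1.58 CPM in WT SH and reach up to 9.52 CPM after MI.

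The transcription factor genes and *Aldh1a2* were well above the 6 surface and keratin genes in level. Divided by the length of the canonical transcript, the level in WT SH was highest for *Tcf21* (13.3 ± 1.77 CPM per kb, SD, n = 4) and *Aldh1a2* (13.2 ± 1.02), which did not differ beyond their spread. *Wt1* followed at 3.99 ± 0.504 CPM per kb and *Tbx18* at 2.77 ± 0.23, and their libraries did not overlap. Next in level per kb was *Krt19* at 0.664 ± 0.2, whose lowest library lay within the range of *Msln*. *Msln* (0.369 ± 0.204), *Krt8* (0.342 ± 0.141) and *Upk3b* (0.292 ± 0.162) overlapped each other, as did *Lrrn4* (0.0958 ± 0.0621) and *Upk1b* (0.0884 ± 0.0397) below them. In WT MI *Aldh1a2* came first (15.6 ± 1.07 CPM per kb) and *Lrrn4* (0.435 ± 0.104) came last, its range overlapping that of *Upk1b* (0.696 ± 0.183).

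*Wt1* encodes a zinc finger transcription factor that maintains epicardial progenitors. It is protein-coding and lies at chr2:104956625-105003961 on the plus strand (GRCm39, GENCODE M39). Its levels were 11.2, 13.9, 12.98 and 15.2 CPM in WT SH 1 to 4 and 11.7, 12.4, 10.9 and 10.1 CPM in KO SH 1 to 4. They were 15.9, 16.7, 15.8 and 16.8 CPM in WT MI, and 12.1, 13.9, 18.6 and 13.5 CPM in KO MI 1, 2, 3 and 7. The 4 WT MI libraries lay above all 4 WT SH libraries, while the KO groups overlapped. The antisense gene *Wt1os* overlaps *Wt1*, but was at most 0.86 CPM, and the reads are strand-specific.

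*Tbx18*, a T-box factor of the epicardium and of mural cells, lies at chr9:87584851-87613338 on the minus strand. It stood at 12.2, 12.8, 12.6 and 14.6 CPM in WT SH and at 8.70, 7.83, 9.47 and 9.86 CPM in KO SH. It stood at 14.1, 19.8, 19.2 and 11.8 CPM in WT MI and at 10.1, 12.3, 12.002 and 10.6 CPM in KO MI. All 4 KO SH libraries were below all 4 WT SH libraries, and the only overlap of the MI groups came from WT MI 4, below KO MI 2 and 3.

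*Tcf21*, a bHLH factor required for cardiac fibroblasts to form from epicardium, lies at chr10:22692803-22696073 on the minus strand. It was between 19.4 and 25.0 CPM in WT SH, 17.6 and 20.4 in KO SH, 18.5 and 21.2 in WT MI, and 19.0 and 25.7 in KO MI, and all groups overlapped. *Aldh1a2*, which makes retinoic acid from retinaldehyde, lies at chr9:71122630-71203527 on the plus strand. It was between 32.5 and 38.7 CPM in WT SH, 34.2 and 38.2 in KO SH, 38.2 and 44.8 in WT MI, and 40.3 and 51.5 in KO MI. The lowest KO MI library was above the highest KO SH library, and the WT groups overlapped by 1 library each.

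*Upk3b* encodes uroplakin 3B, a membrane protein of mesothelial cells, and lies at chr5:136067350-136075342 on the plus strand. It stood at 1.58, 1.02, 1.29 and 0.242 CPM in WT SH and at 2.52, 3.05, 2.92 and 2.31 CPM in KO SH. It stood at 1.74, 4.71, 4.50 and 3.10 CPM in WT MI and at 1.18, 3.74, 5.12 and 3.93 CPM in KO MI. Every KO SH and WT MI library was above every WT SH library, and KO MI 1 fell within the WT SH range. Its neighbouring paralog *Upk3bl* was at most 0.0385 CPM, under the floor of every library, and how reads were divided between the paralogs was not tested.

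*Upk1b* encodes the tetraspanin uroplakin 1B and lies at chr16:38591981-38620727 on the minus strand. It had 0.346, 0.454, 0.315 and 0.121 CPM in WT SH, from 18, 17, 11 and 5 counts. It had 1.35, 1.65, 1.11 and 1.02 CPM in the KO SH libraries. After MI, 1.62, 3.12, 2.70 and 2.30 CPM were measured in WT mice and 0.854, 4.35, 7.61 and 1.87 CPM in KO MI. Of the 10 genes it was the lowest in WT SH. WT SH was below all other groups without overlap, and KO MI was the most spread, from below every KO SH library to above every other library.

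*Msln* encodes mesothelin, a lipid-anchored surface glycoprotein of mesothelial cells, and lies at chr17:25967312-25985619 on the minus strand. It stood at 1.46, 1.23, 0.715 and 0.314 CPM in WT SH and at 2.68, 3.02, 2.15 and 2.44 CPM in KO SH. After MI, it stood at 2.86, 4.24, 3.19 and 3.93 CPM in WT mice and at 1.52, 5.12, 4.49 and 3.32 CPM in KO MI. *Lrrn4*, a leucine-rich repeat membrane protein used as a mesothelial marker, lies at chr2:132705985-132735941 on the minus strand. It stood at 1.21, 0.508, 1.14 and 0.193 CPM in WT SH and at 1.58, 2.19, 2.04 and 1.13 CPM in KO SH. After MI, it stood at 2.96, 4.54, 3.69 and 2.69 CPM in WT mice and at 1.22, 4.25, 9.52 and 3.503 CPM in KO MI. For both genes WT SH 4 was the lowest of all 16 libraries and KO MI 1 the lowest of the MI libraries.

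*Krt8* and *Krt19* encode keratins of simple epithelia, the type II keratin 8 and the type I keratin 19. *Krt8* lies at chr15:101905133-101912917 and *Krt19* at chr11:100031636-100039491, both on the minus strand. *Krt8* stood at 1.08, 0.561, 0.457 and 0.58 CPM in WT SH and at 0.518, 1.16, 0.584 and 0.996 CPM in KO SH. After MI, it stood at 3.07, 3.63, 1.69 and 1.71 CPM in WT mice and at 1.71, 5.73, 4.62 and 2.57 CPM in KO MI. The sham groups overlapped throughout and every MI library was above every sham library. *Krt19* stood at 1.35, 1.15, 1.09 and 0.604 CPM in WT SH and at 2.25, 2.40, 2.15 and 2.86 CPM in KO SH. After MI, it stood at 3.17, 3.79, 3.71 and 2.67 CPM in WT mice and at 2.05, 4.51, 6.90 and 2.89 CPM in KO MI. Here KO SH was above WT SH without overlap, which *Krt8* did not show. A pseudogene, *Krt8-ps*, shares sequence with *Krt8* and was at most 0.108 CPM.

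The promoters of 4 surface genes are shown. These genes varied together within groups but were not called alike in every comparison below. *Krt19* varied with them within groups as well, but its promoter is not shown and held neither of the motifs marked here. Each promoter is the 250 bases before the start of the canonical transcript, read 5′ to 3′ on the strand of the gene from GRCm39. They cover chr5:136067100-136067349 (*Upk3b*), chr16:38620728-38620977 (*Upk1b*), chr2:132722828-132723077 (*Lrrn4*) and chr17:25973433-25973682 (*Msln*), and for *Lrrn4* and *Msln* the canonical start lies inside the gene's full span. Capitals mark CATTCC or its complement GGAATG, the core letters bound by TEAD factors of the Hippo pathway, and AGGTCA, a half-site of retinoic acid receptors.
Upk3b: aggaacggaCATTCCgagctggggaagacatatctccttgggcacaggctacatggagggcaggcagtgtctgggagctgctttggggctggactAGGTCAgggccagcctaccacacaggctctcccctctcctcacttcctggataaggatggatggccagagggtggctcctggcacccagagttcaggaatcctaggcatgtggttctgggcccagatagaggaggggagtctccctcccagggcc
Upk1b: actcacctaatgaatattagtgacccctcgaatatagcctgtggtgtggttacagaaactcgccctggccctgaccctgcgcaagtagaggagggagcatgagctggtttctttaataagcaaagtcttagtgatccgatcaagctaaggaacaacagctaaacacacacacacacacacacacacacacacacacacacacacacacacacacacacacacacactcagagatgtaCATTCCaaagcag
Lrrn4: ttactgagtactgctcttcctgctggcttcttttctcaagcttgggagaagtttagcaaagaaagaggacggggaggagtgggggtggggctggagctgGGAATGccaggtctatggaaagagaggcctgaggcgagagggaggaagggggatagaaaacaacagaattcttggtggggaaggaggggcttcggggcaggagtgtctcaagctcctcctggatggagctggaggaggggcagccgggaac
Msln: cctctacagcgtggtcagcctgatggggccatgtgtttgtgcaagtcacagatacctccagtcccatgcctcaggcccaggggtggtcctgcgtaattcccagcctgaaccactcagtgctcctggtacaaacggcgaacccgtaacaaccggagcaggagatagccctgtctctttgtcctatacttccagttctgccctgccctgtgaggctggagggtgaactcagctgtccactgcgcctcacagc

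On both strands, CATTCC was in 3 of the 10 promoters (*Upk3b*, *Upk1b* and *Lrrn4*) and in 12.1% of 21770 promoters of protein-coding genes of the same length. AGGTCA was in 2 of the 10 (*Upk3b* and *Krt8*) and in 13.1% of all. The E-box CANNTG, read by bHLH factors such as TCF21, was in 7 of the 10 and in 64.8% of all, and is not capitalised. The T-box letters AGGTGTGA (0.96% of all), the letters GCGTGGG bound by WT1 and EGR1 (4.62%) and the TATA box TATAAA (11.9%) were in 0 of the 10. The motifs did not overlap in the printed windows. These are matches of letters in one window and are given as a description.

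The response to MI in the presence of LRRC10 was compared first. In WT MI, 6 of the 10 genes were called higher than in WT SH, namely both uroplakins, *Msln*, *Lrrn4* and both keratins, with rises of 3.16 to 7.84-fold. A gene was called when its log2 fold change was 0.5 or more in size and its p in the quasi-likelihood test of edgeR, with Benjamini-Hochberg adjustment over all genes tested, was under 0.1. By this rule 2.13% of all genes tested were called higher. *Upk1b* rose most, with a log2 fold change of 2.97 ± 0.56 (SE, adjusted p = 0.00849, edgeR). *Lrrn4* rose by 2.16 ± 0.51 (adjusted p = 0.0288, edgeR), *Msln* by 1.91 ± 0.36 (0.00841), *Krt8* by 1.88 ± 0.40 (0.0171), *Upk3b* by 1.75 ± 0.43 (0.0368) and *Krt19* by 1.66 ± 0.31 (0.00749). For each of the 6, every WT MI library was above every WT SH library, and the exact permutation test (two-sided, n = 4 and 4) gave p = 0.0286, the smallest it can give. With *Wt1* this held for 7 of the 10 genes, beside 6.15% of all genes tested whose WT MI libraries all lay above WT SH.

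The transcription factor genes and *Aldh1a2* did not pass the test in WT mice. Their log2 fold changes were 0.29 ± 0.11 for *Wt1*, 0.31 ± 0.13 for *Tbx18*, -0.12 ± 0.10 for *Tcf21* and 0.24 ± 0.08 for *Aldh1a2*, with adjusted p between 0.103 and 0.604 (edgeR). The median log2 fold change of the 10 genes was 1.71, beside -0.0043 over all genes tested. With the low-*Xist* libraries only, 5 of the 6 calls were made, and *Upk3b* missed the threshold (log2 fold change 1.58, adjusted p = 0.176, edgeR). *Upk3b* was also lost without WT MI 2 (log2 fold change 1.58, adjusted p = 0.118, edgeR), and its adjusted p ranged from 0.00834 to 0.176 over all alternatives.

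**Figure D2:**
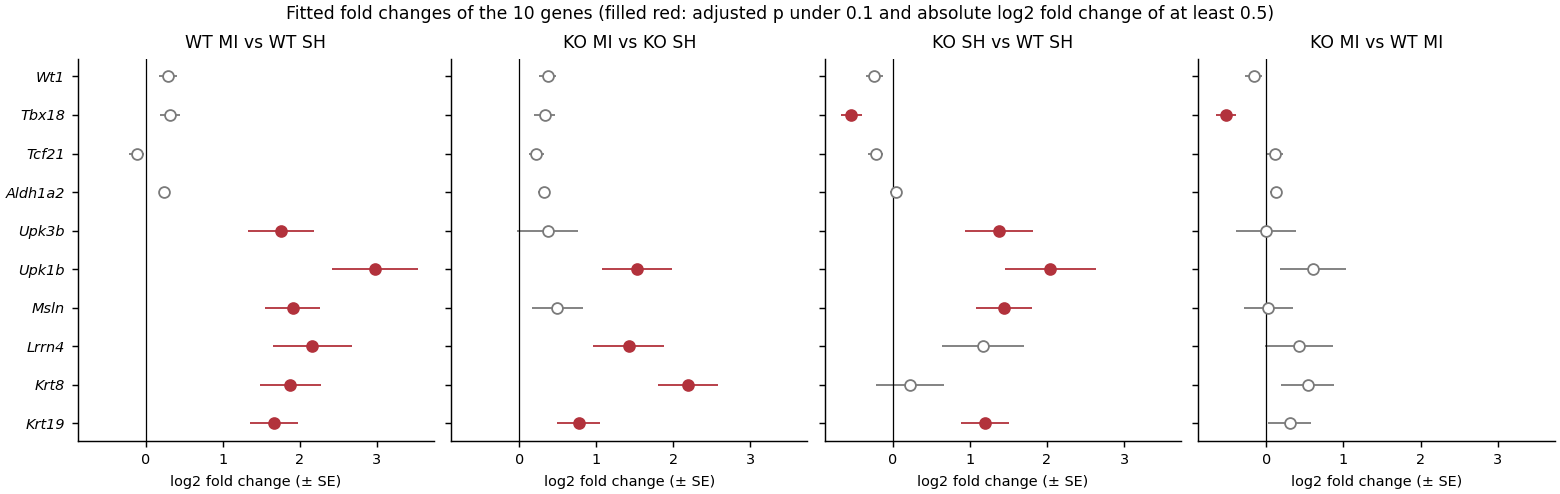
Log2 fold changes (horizontal axis, linear in log2 units) of the 10 genes in 4 comparisons, with bars of 1 SE and filled red points for calls by edgeR. All 6 surface and keratin genes are filled in the WT MI comparison, 4 of them in the KO MI comparison, and of the 10 genes only Tbx18 is filled between the MI groups.

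The same comparison was made in the absence of LRRC10. Of the 10 genes, 4 were called higher in KO MI than in KO SH, and 5.31% of all genes tested were. *Krt8* rose by 2.19 ± 0.39 on the log2 scale (SE, adjusted p = 0.00249, edgeR), and every KO MI library was above every KO SH library (exact permutation p = 0.0286, two-sided). *Upk1b* rose by 1.53 ± 0.46 (adjusted p = 0.038, edgeR), *Lrrn4* by 1.42 ± 0.46 (0.056) and *Krt19* by 0.77 ± 0.28 (0.0869), and for these 3 genes KO MI 1 lay within or below the KO SH range. *Upk3b* (0.37 ± 0.40, adjusted p = 0.606, edgeR) and *Msln* (0.50 ± 0.33, adjusted p = 0.362) did not pass. *Wt1* (0.37 ± 0.11, adjusted p = 0.046) and *Aldh1a2* (0.33 ± 0.08, adjusted p = 0.0122, edgeR) had an adjusted p under the threshold and a change smaller than the required one. Groups did not overlap for 3 of the 10 genes, *Tbx18*, *Aldh1a2* and *Krt8*, beside 7.66% of all genes tested. The median of the 10 genes was 0.43, beside -0.01 over all genes tested.

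The 4 calls in the *Lrrc10*-/- mice did not rest equally on all libraries. Without KO MI 3, the highest library for *Upk1b*, *Lrrn4* and *Krt19*, or without KO SH 4, 1 of the 10 genes was called, and without KO SH 1, 2 were. Leaving out KO MI 3 reduced the log2 fold changes to 0.89 for *Upk1b*, 0.78 for *Lrrn4* and 0.39 for *Krt19* (adjusted p = 0.196, 0.282 and 0.376, edgeR). *Krt8* was called under every alternative, with a log2 fold change of 1.89 to 2.43. *Lrrn4* was lost without KO SH 1 (log2 fold change 1.375), KO SH 4 (1.265) or KO MI 3, and *Upk1b* without KO SH 4 (1.44) or KO MI 3. Except without KO MI 3, these estimates were about as large as in the main fit. *Krt19* was lost in 6 of the 8 fits that left out 1 library of these groups (each KO SH library, KO MI 2 and KO MI 3), with an adjusted p between 0.0133 and 0.376 over its alternatives (edgeR and DESeq2). In the 6 fits its log2 fold change was 0.72 to 0.86, except for 0.39 without KO MI 3. Without KO MI 1, *Msln* was called as well (log2 fold change 0.75, adjusted p = 0.0849, edgeR). Without KO MI 2 and 7, where the skeletal myosin *Myh8* was at 42.3 and 58.5 CPM against at most 5.10 CPM in every other library, the count was 4. It was also 4 with the low-*Xist* libraries only, where *Wt1* was called (log2 fold change 0.61) and *Krt19* was not, and where *Upk1b* and *Lrrn4* had log2 fold changes of 2.16 and 2.03.

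Sham-operated mice of both genotypes were compared to see the 10 genes without infarction. KO SH and WT MI are both compared with the same WT SH libraries, so the values of these comparisons are not independent. In KO SH, 4 genes were called higher (2.48% of all genes tested) and 1 was called lower (2.53% of all). *Upk1b* was higher by 2.04 ± 0.59 on the log2 scale (SE, adjusted p = 0.0416, edgeR), *Msln* by 1.44 ± 0.36 (0.0227), *Upk3b* by 1.38 ± 0.44 (0.0643) and *Krt19* by 1.19 ± 0.31 (0.0271). *Tbx18* fell by 0.54 ± 0.14 (adjusted p = 0.0225, edgeR), a level 0.688-fold that of WT SH. For these 5 genes the groups did not overlap (exact permutation p = 0.0286, two-sided). Of all genes tested, 8.35% had every KO SH library above WT SH and 10.2% every one below. *Lrrn4* (1.17 ± 0.53, adjusted p = 0.2, edgeR), *Krt8* (0.22 ± 0.44), *Wt1* (-0.24 ± 0.11), *Tcf21* (-0.23 ± 0.10) and *Aldh1a2* (0.03 ± 0.08) did not pass. *Lrrn4* was called with only the sham groups in the fit (log2 fold change 1.17, adjusted p = 0.0724, edgeR), where its estimate was about the same. The median of the 10 genes was 0.69.

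All 4 WT SH libraries had low *Xist*, and with low-*Xist* libraries only, which leaves KO SH 3 and 4, 1 of the 5 calls was made. This was *Krt19* (log2 fold change 1.25, adjusted p = 0.091, edgeR). The estimates of the other 4 genes in this smaller fit were 1.79 for *Upk1b*, 1.34 for *Upk3b*, 1.28 for *Msln* and -0.42 for *Tbx18*. KO SH 3 and 4 were each above all WT SH libraries for *Upk3b*, *Upk1b*, *Msln* and *Krt19*. With the *Xist* level as a covariate the same 4 genes were called higher, and the estimate of *Tbx18* (-0.49) was under the required change. WT SH 4 was the lowest library for *Upk3b*, *Upk1b*, *Msln*, *Lrrn4* and *Krt19*. Without it, or without KO SH 2, 3 genes were called, *Tbx18* (-0.48 in both fits) and *Upk3b* being lost. *Upk1b* was lost without WT SH 1 (log2 fold change 2.12, adjusted p = 0.104, edgeR). *Upk3b* was lost in 6 of the 8 fits without 1 library (WT SH 2, WT SH 4 and each KO SH library), its adjusted p being 0.0176 to 0.173 over its alternatives. In the 6 fits its log2 fold change was 1.31 to 1.44, except for 1.05 without WT SH 4. A robust fit also lost it, with an unchanged estimate of 1.38.

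Post-MI, 1 of the 10 genes differed between the genotypes. *Tbx18* was lower in KO MI, with a log2 difference from WT MI of -0.52 ± 0.13 (SE, adjusted p = 0.0523, edgeR), beside 1.16% of all genes tested called lower and 0.57% called higher. Its groups overlapped (exact permutation p = 0.0857, two-sided), and the call was lost in 4 of the 8 fits without 1 library (WT MI 2, WT MI 3, KO MI 1 and KO MI 7), the adjusted p being 0.00755 to 0.242 over its alternatives. In the 4 fits without 1 library that lost it, the log2 difference was between -0.495 and -0.41. The call was also lost with low-*Xist* libraries only (-0.55), without KO MI 2 and 7 (-0.56), and with the MI groups alone in the fit (-0.52). There the estimate was about as large as in the main fit. For the other 9 genes the groups overlapped and no call was made. The 95% intervals of their log2 differences ran from -0.77 to 0.76 for *Upk3b*, from -0.60 to 0.65 for *Msln*, from -0.24 to 1.45 for *Upk1b* and from -0.44 to 1.28 for *Lrrn4*, so differences of these sizes could not be told from none.

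Whether the response to MI itself differed between the genotypes was tested by the interaction, the change from sham to MI in *Lrrc10*-/- mice minus that in WT mice. Of the 10 genes, 0 were called by edgeR and 0 by DESeq2. Of all genes tested, edgeR called 0.0198% higher and 0.00496% lower, and DESeq2 called 1.43% in either direction. At an unadjusted p under 0.05 in edgeR, 4 of the 10 were found, beside 13.6% of all genes tested. They were *Msln* (log2 difference -1.41 ± 0.48, adjusted p = 0.226), *Tcf21* (0.34 ± 0.14, 0.304), *Upk3b* (-1.38 ± 0.59, 0.315) and *Krt19* (-0.89 ± 0.42, 0.356). With only the low-*Xist* libraries, the log2 differences were -0.91 for *Msln*, 0.038 for *Tcf21*, -0.79 for *Upk3b* and -0.73 for *Krt19*. There too, 0 of the 10 genes were called. For *Msln* and *Upk3b*, which were called in WT and not in *Lrrc10*-/- mice, this difference of responses did not pass the test. Without KO MI 1, *Msln* was called in *Lrrc10*-/- mice as well (log2 fold change 0.75).

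**Figure D3:**
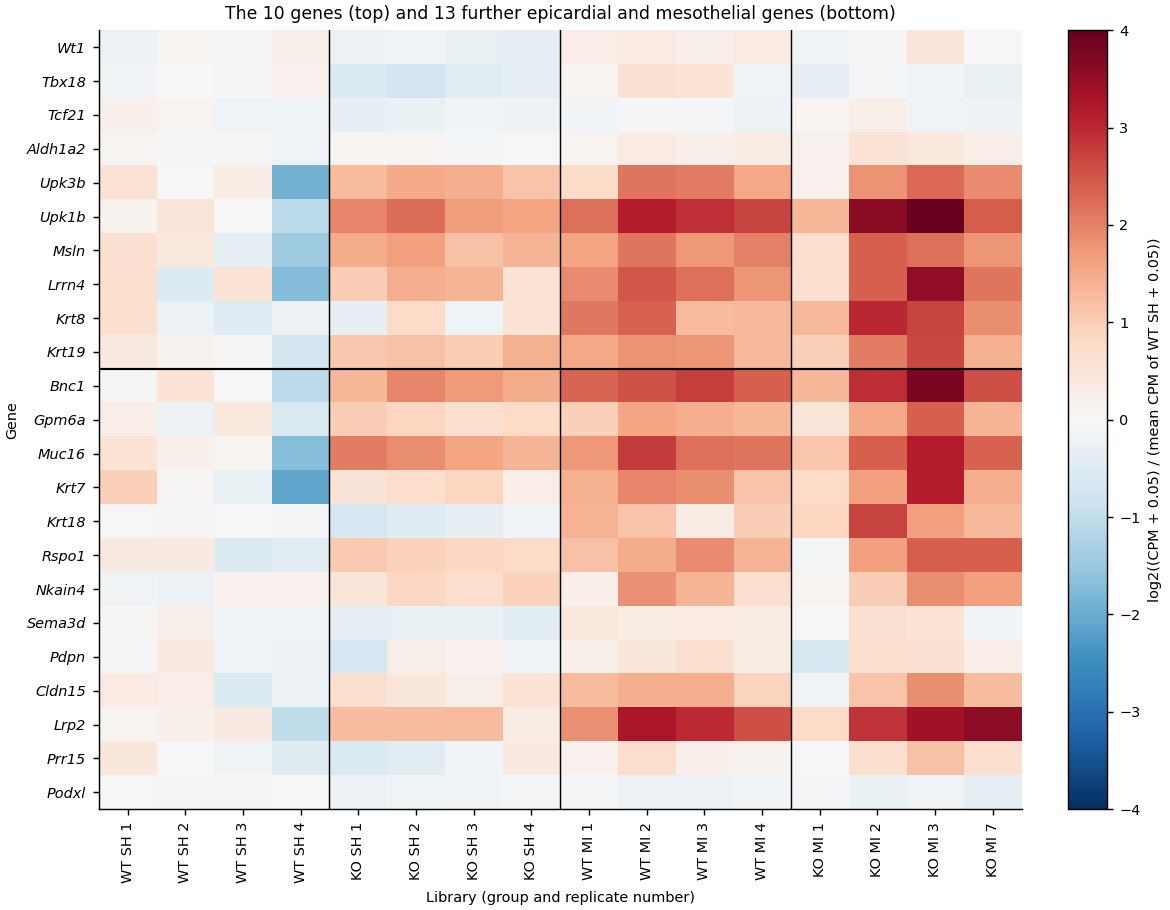
Level of each of the 10 genes and of 13 further epicardial and mesothelial genes in each library, as log2((CPM + 0.05) / (mean CPM of WT SH + 0.05)) on a colour scale from -4 to 4. Upk3b, Upk1b, Msln and Lrrn4 are lowest in WT SH 4 and KO MI 1 within their groups. Of these 4, 3 are highest in KO MI 3 (Msln in KO MI 2), while Wt1, Tbx18, Tcf21 and Aldh1a2 stay near 0.

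Within groups, *Upk3b*, *Upk1b*, *Msln*, *Lrrn4* and *Krt19* varied together. Over the deviations of the 16 libraries from their group means in log2 CPM, the 10 pairs of these 5 genes had Pearson correlations between 0.751 and 0.899. The 5 pairs of these genes with *Aldh1a2* had correlations between 0.677 and 0.778, and the 5 pairs with *Krt8* between 0.353 and 0.646. The 15 pairs with *Wt1*, *Tbx18* and *Tcf21* had a median of 0.151, between -0.0324 and 0.522. The points share their libraries and depth, and the correlations are given as a description. In the sum of these 5 genes, WT SH 4 had 1.47 CPM and the other WT SH libraries 4.36 to 5.94 CPM. KO SH had 9.75 to 12.3 CPM, WT MI 12.4 to 20.4 CPM, and KO MI 6.83, 22.0, 33.6 and 15.5 CPM in libraries 1, 2, 3 and 7. KO MI 1 was thus below every KO SH library, and KO MI 2 and 3 above every WT MI library. The sum of *Wt1*, *Tbx18* and *Tcf21* was 48.2 ± 2.35 CPM in WT SH (SD, n = 4), 38.97 ± 1.24 in KO SH, 52.6 ± 4.69 in WT MI and 47.6 ± 4.1 in KO MI, so KO SH was below WT SH in this sum and above it in the other.

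A further 15 epicardial and mesothelial genes were examined, of which 13 could be tested. In WT MI, 9 of the 13 were higher than in WT SH and 0 lower, with a median log2 fold change of 1.35. The strongest by p were *Bnc1*, the mesothelial zinc finger factor basonuclin 1 (2.73 ± 0.45, adjusted p = 0.0033, edgeR), *Muc16*, the mucin known as CA125 (2.27 ± 0.39, 0.00471), *Lrp2*, the endocytic receptor megalin (2.90 ± 0.51, 0.00515), and *Gpm6a*, a membrane glycoprotein (1.37 ± 0.30, 0.0197). In KO MI against KO SH, 8 of 13 were higher and 0 lower (median 0.78), led by *Krt18*, the partner keratin of keratin 8 (2.24 ± 0.32, adjusted p = 0.000786, edgeR), *Sema3d*, a secreted semaphorin (0.63 ± 0.13, 0.00671), *Lrp2* (1.94 ± 0.45, 0.0114) and *Bnc1* (1.32 ± 0.37, 0.03). In KO SH against WT SH, 2 of 13 were higher, *Bnc1* (1.81 ± 0.47, adjusted p = 0.0258, edgeR) and *Muc16* (1.73 ± 0.39, 0.0136), with a median of 0.62. Between KO MI and WT MI 0 of 13 were called.

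*Muc16* stood at 5.79, 4.62, 4.35 and 1.18 CPM in WT SH and at 16.5, 14.4, 11.9 and 10.4 CPM in KO SH. After MI, it stood at 13.3, 27.7, 18.6 and 17.6 CPM in WT mice and at 8.58, 21.1, 35.6 and 20.8 CPM in KO MI. WT SH 4 was the lowest library for *Muc16* and KO MI 3 the highest, as for *Upk3b*, *Upk1b* and *Lrrn4*. *Krt18* stood at 2.21, 2.32, 2.23 and 2.18 CPM in WT SH and 1.37, 1.57, 1.77 and 2.02 CPM in KO SH, so that KO SH was below WT SH without overlap, although the fit made no call (adjusted p = 0.51, edgeR). It reached 5.95, 4.95, 2.74 and 4.52 CPM in WT MI and 4.11, 15.0, 7.11 and 5.54 CPM in KO MI, highest in KO MI 2, as was *Krt8*. *Dmkn*, a secreted protein of epithelia, was not tested because both sham groups held too few reads. It had 2, 0, 0 and 0 counts in WT SH, 3, 4, 1 and 1 in KO SH, 9, 27, 18 and 20 in WT MI, and 3, 23, 82 and 14 in KO MI. *Calb2* had at most 5 counts in any library.

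Retinoic acid is the best known signal of the epicardium, and 15 of 18 genes of its pathway could be tested. In WT MI against WT SH 0 were called, with 0 lower and 0 higher, beside 2.13% of all genes tested called higher. In KO MI against KO SH, 3 were higher and 1 was lower. Of all genes tested, 5.31% were called higher in that comparison, and 425 of 20159 were called lower. The retinaldehyde dehydrogenases *Aldh1a3* (0.67 ± 0.18, adjusted p = 0.023) and *Aldh1a1* (0.58 ± 0.19, 0.0625, edgeR) were among those that rose. *Cyp26b1*, which degrades retinoic acid, fell by 0.70 ± 0.23 (0.0557). In KO SH against WT SH, *Cyp26b1* was higher (0.93 ± 0.24, adjusted p = 0.0231, edgeR), and *Aldh1a3* (-0.54 ± 0.18, 0.0793) and the retinoid X receptor *Rxrg* (-0.82 ± 0.26, 0.0591) were lower. *Rxrg* was also lower in KO MI against WT MI (-0.90 ± 0.26, adjusted p = 0.0991, edgeR).

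Of 12 genes of the epithelial-mesenchymal transition, 11 could be tested. *Fn1*, the matrix protein fibronectin, was called higher in WT MI than in WT SH (0.55 ± 0.13, adjusted p = 0.0329, edgeR). *Fn1* (0.96 ± 0.13, adjusted p = 0.000753) and the bHLH factor *Twist1* (0.62 ± 0.19, 0.0443, edgeR) were higher in KO MI than in KO SH, and 0 of 11 were called between the genotypes in either state. The median log2 fold change of the 11 genes was 0.04 in WT and 0.06 in *Lrrc10*-/- mice. Among 7 other uroplakins and keratins, 1 could be tested. This was *Krt14*, a keratin of basal epithelial cells, which was under 0.1 CPM on average in both sham groups and rose by 2.40 ± 0.58 in WT mice (adjusted p = 0.0316, edgeR) and by 3.17 ± 0.58 in *Lrrc10*-/- mice (0.00284). The urothelial *Upk2* and *Upk3a* and the basal keratin *Krt5* had 0 counts in all 16 libraries, and *Upk1a* had at most 6 counts.

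**Figure D4:**
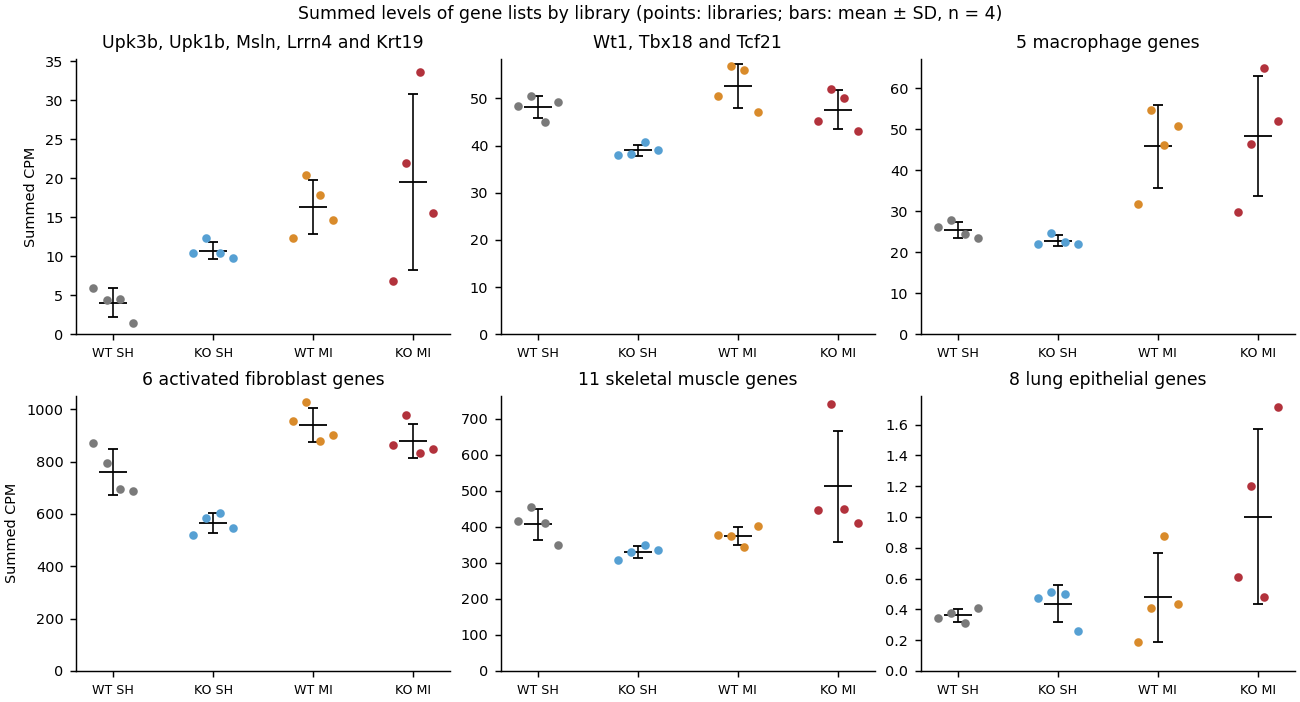
Summed CPM (linear axes from 0) of the surface genes with Krt19, of 3 transcription factors and of genes of other cell types, with a point for each library and bars for the mean and SD (n = 4). The lung epithelial sum never exceeds 1.71 CPM, and the macrophage sum rises from at most 27.9 CPM in the sham libraries to at least 29.8 CPM in the MI libraries.

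Genes of other cell types were measured beside the 10 genes, since mesothelium also lines the pericardium and the pleura. Of 8 lung epithelial genes, 1 could be tested and 0 were called in any comparison, and their sum was between 0.189 and 1.71 CPM. *Ager* was the most abundant of them in 15 of 16 libraries, at most 0.697 CPM. *Sftpc*, a surfactant gene, had 0 counts in the other 3 groups and in KO MI 1, and was at 0.472, 0.0193 and 0.856 CPM in KO MI 2, 3 and 7. At most 3 of the 8 genes exceeded the floor in any library. Of 5 macrophage genes, 1 was called higher in WT MI than in WT SH (*Lyz2*) and 4 in KO MI than in KO SH, and 1 was called lower in KO SH against WT SH. Their sum was 23.4 to 27.9 CPM in WT SH, 22.0 to 24.8 in KO SH, 31.7, 54.9, 46.2 and 50.8 in WT MI, and 29.8, 46.5, 65.0 and 52.1 in KO MI, with *Lyz2* the most abundant in every MI library and *Csf1r* in 7 of 8 sham libraries. Its lowest MI libraries were WT MI 1 and KO MI 1 and its highest was KO MI 3, as for the sum of the surface genes. Of 6 activated fibroblast genes, 2 were called higher in WT MI than in WT SH and 5 in KO MI than in KO SH, and 2 were called lower in KO SH against WT SH. Of 7 general fibroblast genes, 3 were called higher in KO MI than in KO SH and 0 in WT MI than in WT SH. Their sum was 2392 ± 168 CPM in WT SH (SD, n = 4), 2166 ± 89.1 in KO SH, 2905 ± 195 in WT MI and 2964 ± 178 in KO MI, with *Col3a1* the most abundant, and every MI library was above every sham library. Of 7 cardiomyocyte genes, 1 was called lower in KO MI than in KO SH. Of 11 skeletal muscle genes, 8 could be tested, 6 were higher in KO MI than in KO SH and 4 higher than in WT MI, and 1 was called lower in KO SH against WT SH. Their sum was highest in KO MI 2 at 741.9 CPM, against 306.5 to 453.5 CPM in the other 15 libraries. Without *Ckm* and *Acta1*, which heart muscle also makes, the sum of the other 9 was 71.4 CPM in KO MI 2 and 119 CPM in KO MI 7, and at most 13.1 CPM elsewhere. All 4 proliferation genes, 2 of 4 atrial genes and 2 of 3 smooth muscle genes were also called higher in KO MI than in KO SH. In WT MI against WT SH 1 of the 4 proliferation genes was called higher, and in KO MI against WT MI 1 of the 4 atrial genes. The atrial sum was 2427 CPM in KO MI 2 and at most 856.1 CPM in any other library. *Nppa* was the most abundant of the atrial genes in every library. It alone was at 2395 CPM in KO MI 2 and at 777 CPM in KO MI 3, the library with the next highest sum. The sum of 6 thymocyte genes was 2.44 CPM in WT SH 4 and 0.2 to 0.538 CPM in the other WT SH libraries. Of all genes tested, 2.13% were called higher in WT MI than in WT SH, and 5.31% in KO MI than in KO SH. Called lower were 425 of 20159 in KO MI against KO SH and 2.53% in KO SH against WT SH. Between KO MI and WT MI, 0.57% were called higher. The parts of these cell types and of proliferation in the values of the 10 genes were not tested.

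The genes whose levels were most like those of the 10 were sought among 14106 other genes with a mean of at least 1 CPM, by Pearson correlation of log2 CPM over the 16 libraries. For the mean of the standardised levels of the 10 genes these were *Ildr2* (0.967), *Smpd3* (0.955), *Il33* (0.946), *Plvap* (0.945) and *Scpep1* (0.945). For *Upk3b* they were *Muc16* (0.959), *Efemp1* (0.906), *Gpm6a* (0.904), *Bnc1* (0.89) and *Tll1* (0.871), of which 3 are in the wider list above. For *Wt1* they were *Adgrg2* (0.886), *Ptafr* (0.873), *Lhfpl2* (0.872), *Aurka* (0.865) and *Mrc1* (0.862). No gene was in more than 1 of these lists. The libraries share their groups, so these correlations include the differences between groups and are a description.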

How the data were processed

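RNA-seq of ventricles was measured in 16 libraries, 4 a group. By the study's methods the authors trimmed with Skewer, aligned 150-base strand-specific pairs to GRCm39 with STAR and estimated expression with RSEM, whereas the submitters' processing notes name cutadapt (version 3.4) and HISAT2 (version 2.2.1). The annotation release is not given in the sources used here. The deposited values are RSEM expected counts, whole numbers without normalization. RSEM divides reads among near-identical genes. Gene names came from GENCODE M39, which matched 47772 of 51912 identifiers, and unmatched identifiers held at most 0.786% of a library's counts. Mitochondrially encoded genes took 38.1% to 47.8%.

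In R (version 4.3.3), edgeR (version 4.0.16) with TMM normalization was fitted to all 16 libraries with 1 coefficient a group. The script was tested on simulated data. SEs come from the F statistics and 95% intervals from the normal distribution. CPM uses the TMM-scaled library total. The exact permutation test used log2(CPM + 0.05). DESeq2 (version 1.42.0), other scalings, filters and fits, and leaving out libraries were alternatives. All 10 genes are named, and of each other list at most 4 called genes a comparison by smallest p. *Muc16* and *Krt18* levels, *Dmkn*, *Calb2*, *Myh8*, *Sftpc*, the skeletal sum without *Ckm* and *Acta1*, and the genes at 0 counts were singled out after their values were seen. The values of 1 gene of the retinoic acid list are not reported here. The genes and lists were chosen with earlier results of these data known. Floors cover counting error only.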

Additional observations from a re-analysis of the deposited data

Results flagged for a closer look

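Among the 200 sets of 4 libraries checked (50 genes, the 10 among them, in 4 groups), 7 had 1 library apart from the other 3 by more than Dixon's 95% criterion, which chance exceeds in about 1 of 20. The 10 epicardial and mesothelial genes gave 0 such sets. *Lrp2* was 0.551 CPM in KO SH 4, below 1.104 to 1.13 CPM in the other KO SH libraries. *Prr15* was 1.16 CPM and *Krt14* 0.817 CPM in WT MI 2, above at most 0.809 and 0.42 CPM in the other WT MI libraries. *Pdgfra* was 65.1 CPM and *Rbp4* 0.18 CPM in WT MI 3, against at most 57.2 and 0.0651 CPM in the others. *Dhrs3* was 21.4 CPM in KO SH 1 and *Tgfbr3* 68.8 CPM in KO SH 3, both below the other KO SH libraries, which had at least 23.8 and 77.6 CPM.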

How the results depend on the processing

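The count of the 10 genes called in WT MI against WT SH was 6, and 4 to 6 over all alternatives (5 to 6 with 1 library left out). For KO MI against KO SH it was 4, and 2 at an adjusted p under 0.05, 2 with at least 10 counts in every library (where *Upk1b* and *Lrrn4* could not be tested), 2 with a robust fit, 1 with only the groups of the contrast in the fit, and 1 to 5 with 1 library left out. The robust fit lost *Lrrn4* and *Krt19*, and the fit of the contrast's groups also *Upk1b*, at about unchanged log2 fold changes (1.42, 0.77 and 1.53). For KO SH against WT SH it was 5, 6 with only the groups of the contrast (*Lrrn4* being added), 1 with only the low-*Xist* libraries (an alternative chosen after seeing the data), and 3 to 5 with 1 library left out. For KO MI against WT MI it was 1, and 0 at an adjusted p under 0.05, with only the groups of the contrast, with only low-*Xist* libraries and without KO MI 2 and 7, and 0 to 1 with 1 library left out. The interaction gave 0 throughout. Of the 40 exact permutation tests 15 reached p = 0.0286, 15 with a pseudocount of 0.5 and 18 with the plain library total. With the replicate number as a block, the counts were 6, 4, 5, 1 and 0, the last being the interaction, so the block moved no count. Same-numbered libraries did not deviate together (mean correlation 0.0075 over 21 pairs, 1 of them over 0.1), so the numbers were not taken to pair them. The cause of these changes was not tested, except that smaller fits hold fewer libraries.

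Small estimates that turned direction, all far from a call, were as follows on the log2 scale. With only low-*Xist* libraries they were -0.029 for *Tcf21* in KO MI against KO SH, -0.011 for *Aldh1a2* in KO SH against WT SH, 0.026 for *Wt1*, -0.11 for *Tcf21* and 0.55 for *Upk3b* in KO MI against WT MI, and -0.13 for the interaction of *Tbx18*. With the *Xist* covariate they were -0.031 for *Aldh1a2* in KO SH against WT SH and -0.034 for the interaction of *Tbx18*. Without KO MI 2 and 7, the estimates were -0.24 for *Msln* in KO MI against WT MI and -0.024 for the interaction of *Tbx18*. With the replicate block the estimate of *Msln* in the former comparison was -0.0486. With 1 library left out, KO MI against WT MI ranged from -0.26 to 0.28 for *Upk3b*, -0.038 to 0.93 for *Upk1b*, -0.19 to 0.28 for *Msln*, -0.22 to 0.74 for *Lrrn4* and -0.080 to 0.52 for *Krt19*. *Aldh1a2* in KO SH against WT SH ranged from -0.0041 to 0.080, and the interaction from -0.067 to 0.15 for *Wt1*, -0.11 to 0.13 for *Tbx18* and -0.045 to 0.54 for *Krt8*. The lowest levels, 5 to 18 counts of *Upk1b* in WT SH, limit the precision of its fold changes.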
